A study of Mus musculus with 4 samples.

Results

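The genes described here are the expressed neighbours of G3bp1 on mouse chromosome 11, in macrophages whose G3bp1 gene was intact or targeted for deletion. They were chosen by position and abundance, less a few genes: each gene started within 5 Mb of the G3bp1 start and had at least 10 counts in at least 2 of the 4 libraries. G3bp1, Sparc, Col23a1, Igtp, Irgm2, Nlrp3, Gm2a, Srebf1 and Uqcrq were left out by name. This left 92 genes of the 34745 in the table, 49 before G3bp1 (at lower coordinates) and 43 after it, and 86 of them are annotated as protein coding. The window held 237 genes in all, and 136 were below the count minimum, 37 of them olfactory receptor genes.

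Total RNA of bone marrow-derived macrophages was sequenced in 4 libraries, WT1 and WT2 from G3bp1f/f mice and KO1 and KO2 from G3bp1mac-/- mice. Both genotypes carried loxP-flanked G3bp1 alleles, and the KO mice also carried Cre recombinase at Lyz2, a gene active in macrophages, monocytes and granulocytes. The age of the mice of these 2 genotypes, and whether the 2 libraries of a genotype came from separate animals or cultures, are not given in the sources used here, so the spread between libraries may be technical. Library totals ran from 16724241 to 19747909 counts, and 3 counts in a library, the lowest level read here as signal, equalled 0.152 to 0.188 CPM, the count scaled to a fixed library total.

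G3bp1 encodes an RNA-binding protein that nucleates stress granules. Its start lies at chr11:55469685 on GRCm38. G3bp1 was at 104 and 180 CPM in WT1 and WT2 and at 70.1 and 117 CPM in KO1 and KO2. KO2 lay above WT1, so the gene-level count did not separate the 2 labels, although KO was lower between libraries of the same number, with log2 ratios of -0.57 and -0.63. The log2 fold change of -0.61 (SE 0.40) had a quasi-likelihood adjusted p (edgeR) of 0.904. Counts per gene do not show which exons were covered, and all directions given for KO rest on the labels as deposited. The macrophage markers, Lyz2, Csf1r and Adgre1 among them, summed to between 20960 and 26210 CPM in each library, of which Lyz2 alone made 16869 to 21870 CPM. Of the 8 markers, 1 (Itgam) had both KO libraries above both WT libraries, beside 20% of all genes tested. Below them were 2 (Cd68 and Marco), beside 16.9%.

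The interval holds several well-known gene groups of the mouse genome. Before G3bp1 lie a family of zinc finger genes, the type 2 cytokine cluster with its neighbours Kif3a, Rad50 and Irf1, the organic cation transporters of the Slc22 family, and the Slc36 proton-coupled amino acid transporters. After it lie vesicle traffic genes such as Arf1, and Flcn, whose product folliculin acts in nutrient sensing at the lysosome. The cytokine genes are known from T helper and mast cells, whereas Irf1 and Slc22a4 are known from macrophages.

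Of the 92 genes, 13 differed by more than 2-fold between the genotypes with no overlap of the libraries, and all 13 lay before G3bp1. They were 13 of the 49 genes before G3bp1 and 0 of the 43 after it. Gm12220, Zfp354a, Zfp354b and Slc36a2 reached 10 counts in libraries of 1 genotype only, so the count minimum let them in only through the genotype in which they were high, and without these 4 the counts were 9 of 45 before and 0 of 43 after (10.2% of the 88, beside 4.78% of all genes tested that met the same requirement). In KO, Pdlim4, Slc36a2, Adamts2, D930048N14Rik, Kif3a, N4bp3 and Slc36a1 were higher, and Gm12220, Zfp354a, Slc22a4, Lyrm7, Zfp354b and Zfp2 were lower. Over all 12418 genes tested, 6.76% met this description, and on the rest of chromosome 11 it was met by 70 of 959. With genotype as the only term, no gene of the interval was called by edgeR's quasi-likelihood test. Nor was any other gene (0% of the 12418, at an adjusted p under 0.05 and more than 2-fold). The smallest adjusted p among the members was 0.216, and calls with the replicate number as a block are given at the end. At an unadjusted p under 0.05 in the same fit there were 13 members, 7 higher and 6 lower in KO, beside 6.63% of all genes tested. They are the genes already named, except that Ccdc69, also before G3bp1, stands in place of Zfp2, so this is not a separate result. The same 4 genes that passed the count minimum through 1 genotype only are among them. The DESeq2 Wald test called 4 members, beside 1.46% of all genes (181), and edgeR's exact test called 6, beside 1.85% (230). With the same 4 genes left out, each of these tests called 3 members, Pdlim4, Slc22a4 and Lyrm7, beside 1.31% (Wald) and 1.36% (exact) of all genes that met that requirement. These 3 genes lie before G3bp1.

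**Figure D1:**
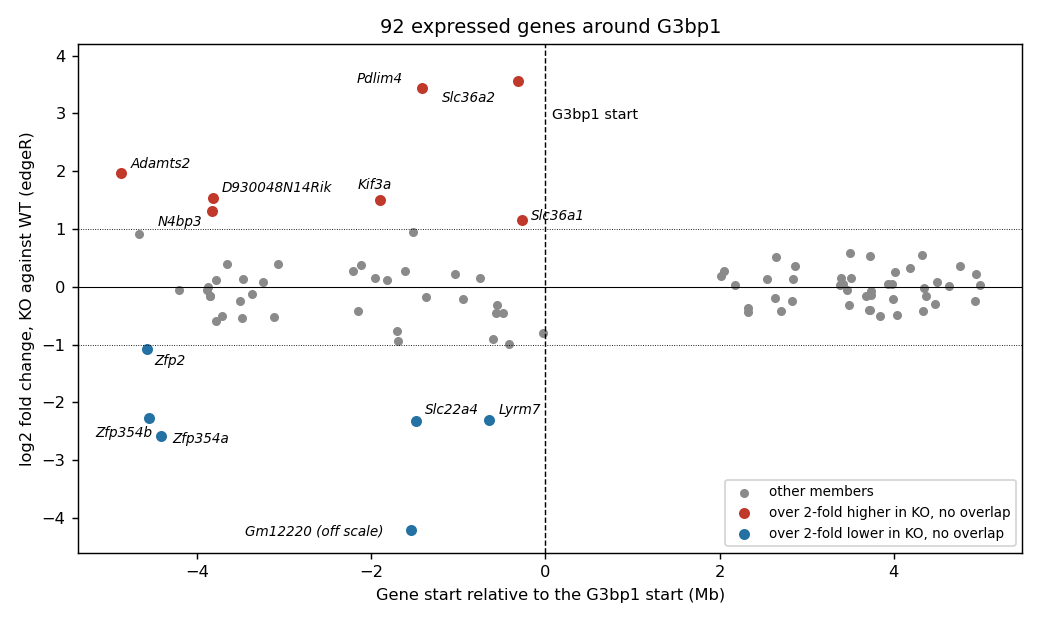
Each point is 1 of the 92 genes, with the distance of its start from the G3bp1 start in Mb on the horizontal axis and its edgeR log2 fold change (KO against WT) on the vertical axis. The 13 genes over 2-fold apart without overlap of the libraries (red higher, blue lower in KO) all lie to the left of G3bp1, and Gm12220, at a fitted value of -8.82, is drawn at the lower edge.

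The 13 genes lay at both ends of that side, with none among the 15 members in the 1910 kb between D930048N14Rik and Kif3a. Within 1 Mb before G3bp1, 3 of 11 genes were over 2-fold apart without overlap, from 1 to 2.5 Mb 4 of 15, and from 2.5 to 5 Mb 6 of 23. Of the 4 genes that passed the count minimum through 1 genotype only, the first count includes Slc36a2 and the second Gm12220. The third includes Zfp354a and Zfp354b, and the counts below with a library left out keep all 4. On the far side no expressed gene started within 1 Mb, and the expressed genes resumed 2.04 Mb further on, where Fam114a2 followed Atox1. With any 1 library left out, 12 to 19 genes before G3bp1 and 0 to 2 after it were over 2-fold apart without overlap (14.1% to 20.7% of the members, beside 8.38% to 13.1% of all genes tested). Of the 13, Zfp2, Kif3a and Slc36a1 fell short of this without KO1, Zfp2 without WT1 and Slc36a1 without WT2. The median size of the log2 difference, its sign left aside, was 0.45 before G3bp1, 0.23 after it and 0.25 over all genes tested. The median with its sign was -0.12 before, 0.03 after and 0.04 over all genes tested. For 21 members both KO libraries were higher than either WT library, beside 20% of all genes, and for 23 they were lower, beside 16.9%, so that 44 of 92 did not overlap, beside 36.9%.

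**Figure D2:**
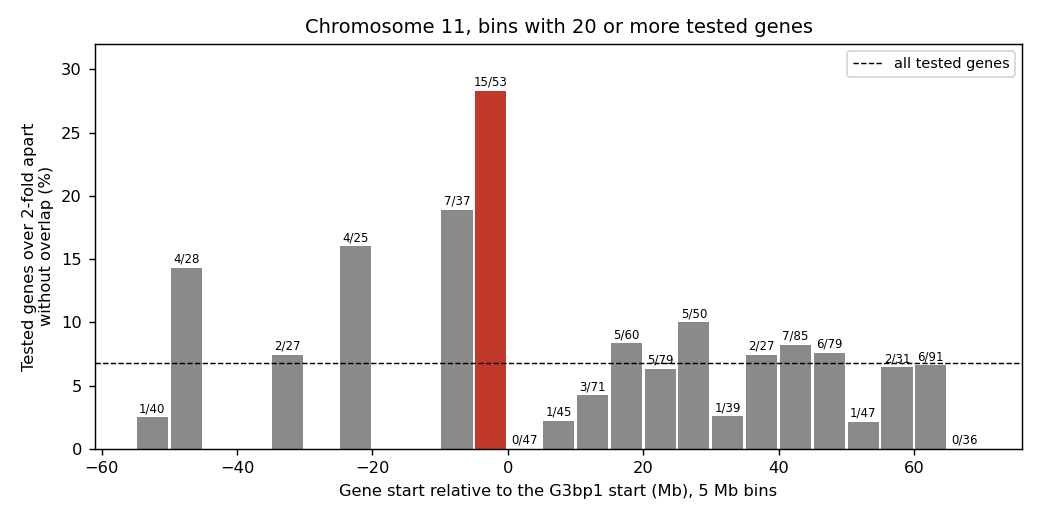
Bars give, for each 5 Mb bin of chromosome 11 with at least 20 tested genes, the percentage of tested genes over 2-fold apart between genotypes without overlap, with the counts above each bar and the share over all tested genes (6.76%) as a dashed line. The bin before G3bp1 (red) stands at 28.3%, the bin after it at 0%, and the other 18 bins run from 0% to 18.9%.

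Along the rest of the chromosome, bins of 5 Mb gave a scale for these shares. Counting every tested gene, the 4 non-members on each side included, 15 of 53 genes in the 5 Mb before G3bp1 were over 2-fold apart without overlap (28.3%) and 0 of 47 in the 5 Mb after it. The 15 include Gm12220, Zfp354a, Zfp354b and Slc36a2, which passed the count minimum through 1 genotype only. No bin was counted without such genes. The bin from 10 to 5 Mb before G3bp1 had the next largest share among bins of at least 20 genes, 18.9% or 7 of 37. The bin from 5 to 10 Mb after G3bp1 held 1 of 45. The expressed genes just outside the window were Rufy1, with counts of 912 and 837 in WT against 1287 and 1015 in KO, and Alkbh5, with 894 and 975 in WT and 1214 and 1267 in KO. These counts are not scaled as CPM are, so no direction is read from them.

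The pair with the greatest differences at appreciable counts were neighbours with opposite directions. Slc22a4, which encodes the ergothioneine transporter OCTN1, was at 158 and 108 CPM in WT and at 27.9 and 25.1 CPM in KO. Both KO libraries were far below both WT libraries, by 5.02-fold (log2 -2.33, 95% CI -3.07 to -1.59), with an edgeR quasi-likelihood adjusted p of 0.216 and a DESeq2 Wald adjusted p of 7e-09. Pdlim4, which encodes an actin-associated PDZ and LIM domain protein, lies 26.8 kb further on with no member between. It was at 2.10 and 2.20 CPM in WT and at 19.3 and 27.1 CPM in KO. The 2 groups were 10.8-fold apart (log2 3.43, 95% CI 2.63 to 4.23), with adjusted p values of 0.216 (edgeR quasi-likelihood) and 1.7e-12 (DESeq2 Wald). Over the other settings without a replicate block, the adjusted p of Slc22a4 ran from 7.05e-09 to 1 and that of Pdlim4 from 1.71e-12 to 0.741, the highest values coming from fits that left out a library. The paralogue of Slc22a4 nearby, Slc22a5, the carnitine transporter, was at 10.2 and 14.1 CPM in WT and 13.5 and 15.7 CPM in KO, with overlap of the libraries. Slc22a21, a further carnitine transporter of the family, had counts of 10 and 7 in WT against 21 and 18 in KO. Whether reads were shared between these paralogues was not tested.

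The promoters of this pair are shown because the genes, both on the minus strand, differed in opposite directions. With them are Kif3a, on the plus strand and higher in KO, and Irf1, which lies between Kif3a and the pair and did not differ between genotypes beyond the spread of the libraries. Each sequence is the 250 bases before the RefSeq transcript start on GRCm38.p6, 5′ to 3′ on the strand of the gene. Capitals mark, on either strand, any of 4 short motifs that are spelled out after the sequences.
Slc22a4 (chr11:54028105-54028354, minus strand): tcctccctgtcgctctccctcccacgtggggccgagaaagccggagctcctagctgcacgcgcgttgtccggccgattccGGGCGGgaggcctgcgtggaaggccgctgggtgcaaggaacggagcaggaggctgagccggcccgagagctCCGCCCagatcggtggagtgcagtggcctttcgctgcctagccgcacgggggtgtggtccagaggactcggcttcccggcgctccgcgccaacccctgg
Pdlim4 (chr11:54069018-54069267, minus strand): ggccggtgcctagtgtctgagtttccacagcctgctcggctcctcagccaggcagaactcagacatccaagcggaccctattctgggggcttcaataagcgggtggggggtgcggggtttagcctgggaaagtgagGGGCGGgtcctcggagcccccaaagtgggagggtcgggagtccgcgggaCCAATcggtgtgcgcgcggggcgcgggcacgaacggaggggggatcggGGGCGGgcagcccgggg
Kif3a (chr11:53567119-53567368, plus strand): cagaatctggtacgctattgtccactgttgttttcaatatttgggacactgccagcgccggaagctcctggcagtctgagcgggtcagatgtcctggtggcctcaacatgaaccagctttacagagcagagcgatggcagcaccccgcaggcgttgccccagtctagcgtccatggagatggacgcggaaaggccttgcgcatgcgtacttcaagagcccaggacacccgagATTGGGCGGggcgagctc
Irf1 (chr11:53769764-53770013, plus strand): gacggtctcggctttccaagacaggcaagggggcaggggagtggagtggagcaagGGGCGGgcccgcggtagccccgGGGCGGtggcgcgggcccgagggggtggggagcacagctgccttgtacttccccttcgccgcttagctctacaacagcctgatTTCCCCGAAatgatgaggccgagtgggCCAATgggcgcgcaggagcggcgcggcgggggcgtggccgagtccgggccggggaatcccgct

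The motif searched for the GC box, bound by SP1-type factors, was GGGCGG. RefSeq promoters were matched for 75 of the 92 members, and 47 of these (62.7%) held it, as did 32.7% of all 32851 promoters of the table. The members were chosen for expression and the promoters of the table were not, so the shares are of unlike sets for each motif. The second motif was the sequence bound by the factor NF-Y, written CCAAT, and 22 of 75 members held it (29.3%), as did 33.8% of all promoters. The third was the core of a STAT site, TTCNNNGAA, which 3 of 75 held (4%), as did 7.02% of all. The last, the box near the start of many regulated genes, was searched as TATAAA and held by 2 of 75 (2.67%), as by 12.4% of all. The 2 were Zfp354b and Lyrm7, both among the 10 matched genes of the 13 that were over 2-fold apart. Of those 10, 5 held the first motif, 3 the second and 0 the third. Of the promoters shown, Slc22a4 held the first motif alone, Pdlim4 and Kif3a the first and second, which overlap in Kif3a, and Irf1 the first to the third. A match of letters is a description and not a binding site.

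**Figure D3:**
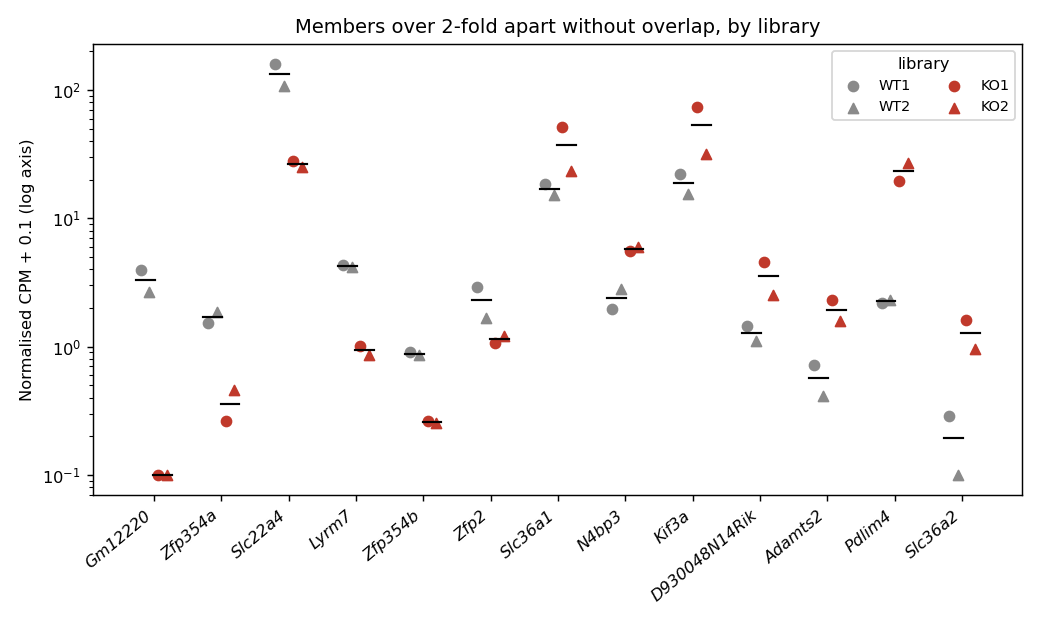
Points give the normalised CPM plus 0.1 (log axis) of each of the 13 genes in WT1 and WT2 (grey) and KO1 and KO2 (red). Slc22a4 lies at 158 and 108 CPM in WT and at 27.9 and 25.1 CPM in KO, Pdlim4 at 2.10 and 2.20 CPM in WT and at 19.3 and 27.1 CPM in KO, and the mean of each genotype is a black bar.

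Further genes of this stretch were apart at lower counts. Kif3a, which encodes a motor subunit of kinesin-2, was at 22.1 and 15.3 CPM in WT and at 73.8 and 31.9 CPM in KO. Its KO libraries were the higher ones but differed widely from each other, and the 2.83-fold difference (95% CI 0.32 to 2.68 on the log2 scale) had a quasi-likelihood adjusted p (edgeR) of 0.553. Without KO1 the log2 fold change of Kif3a was 0.78 in place of 1.50. A430108G06Rik, a gene on the opposite strand that ends just before the Kif3a start and was below the count minimum, had 0 counts in both WT libraries and 32 and 7 in KO. Gm12220, an unprocessed pseudogene of 0.172 kb, had 62 and 41 counts in WT and 0 in both KO libraries, so it was at least 20.4-fold lower, set against 3 counts in each KO library. It passed the count minimum through WT alone, so its difference is given as a description. Reads of a pseudogene can also match its parent gene, so its counts are uncertain.

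The interleukin genes were at or near 0, and the other neighbours that met the count minimum differed by less than 2-fold or overlapped. Gdf9, which did not meet it, had counts of 1 and 2 in WT against 12 and 8 in KO. Il4, Il13 and Il3 had 0 counts in every library, and Il5 had 2 counts in 1 of the 4. Csf2, the gene of the growth factor GM-CSF, had 0 counts in WT1 and KO1, 32 in WT2 and 5 in KO2. Rad50, a DNA repair gene, was at 28.2 and 21.7 CPM in WT and at 32.1 and 22.3 CPM in KO. Aff4, a scaffold of the super elongation complex, was at 56.7 and 84.6 CPM in WT and at 94.1 and 89.1 CPM in KO, without overlap and with a quasi-likelihood adjusted p (edgeR) of 0.932. Of the 12 members on the list for this cluster, 5 had KO above WT (20% of all genes tested did), 2 had KO below (16.9% did), and the median log2 fold change was 0.22. Hspa4, a chaperone, and Sept8, a septin whose symbol the table holds as a date, were 0.27 and 0.16 on that scale.

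Among the genes nearest to G3bp1, the 2 expressed amino acid transporter genes were higher in KO. Slc36a1, whose product PAT1 exports amino acids from lysosomes, was at 18.4 and 15.0 CPM in WT and at 51.0 and 23.3 CPM in KO. It was 2.22-fold higher (95% CI 0.09 to 2.21 on the log2 scale), with a quasi-likelihood adjusted p (edgeR) of 0.68, and the 2 KO libraries were again apart from each other. Without KO1 the log2 fold change was 0.48. Slc36a2, a paralogue 19.3 kb away on the other strand, had counts of 3 and 0 in WT against 28 and 17 in KO. The ratio of its summed counts was 12.6 with a 95% counting interval of 4.04 to 63.3, which does not cover the spread between libraries, and the gene passed the count minimum through KO alone.

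On either side of this pair, and among the 4 members closest before G3bp1, Ccdc69 and Atox1 were lower in KO without overlap. Ccdc69, a coiled-coil protein gene, was at 11.7 and 8.91 CPM in WT and at 5.42 and 4.93 CPM in KO, which is 1.99-fold. Atox1, which encodes a copper chaperone and starts 0.02 Mb before G3bp1, was at 247 and 148 CPM in WT and at 99.8 and 128 CPM in KO. WT1 stood well above the other 3 libraries there, and the log2 ratio was -1.31 between the libraries numbered 1 and -0.20 between those numbered 2. On the other side Fam114a2, Mfap3, Galnt10 and 2010001A14Rik had log2 fold changes of 0.19, 0.28, 0.04 and -0.36.

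Lyrm7, an assembly factor of respiratory complex III, had counts of 68 and 65 in WT against 17 and 15 in KO. The libraries within each genotype were close together, and the difference was 4.91-fold (log2 -2.30, 95% CI -3.22 to -1.37), with an adjusted p of 0.25 in the quasi-likelihood test and 0.00522 in the DESeq2 Wald test (0.00162 to 1 over the other settings without a replicate block). It was the largest difference on the list of mitochondrial and metabolic genes. Of the 13 members on that list, 9 had both KO libraries below both WT libraries and 0 had both above, with a median log2 fold change of -0.41, beside 16.9% below and a median of 0.04 over all genes tested. In edgeR's quasi-likelihood test 0 of the 13 passed the adjusted threshold and 1, Lyrm7, had an unadjusted p under 0.05.

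The other members of that list differed by less than 2-fold. Hint1, a purine nucleotide hydrolase gene and the most abundant member at a mean of 232 FPKM (fragments scaled to gene length and library total), was at 479 and 269 CPM in WT and at 170 and 231 CPM in KO. Here too WT1 was the highest library, and the log2 ratios were -1.50 and -0.22 between libraries of the same number. Vdac1, the outer mitochondrial membrane channel, was at 169 and 164 CPM in WT and at 115 and 117 CPM in KO, and its ratios of -0.55 and -0.49 were alike. The mitochondrial ribosomal genes Mrpl22 and Mrpl55 were at -0.42 and -0.39 on the log2 scale. Between libraries of the same number the ratios were -0.56 and -0.27 for Mrpl22 and -0.75 and -0.01 for Mrpl55. Over the list, the median ratio was -0.55 between the libraries numbered 1 and -0.22 between those numbered 2.

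**Figure D4:**
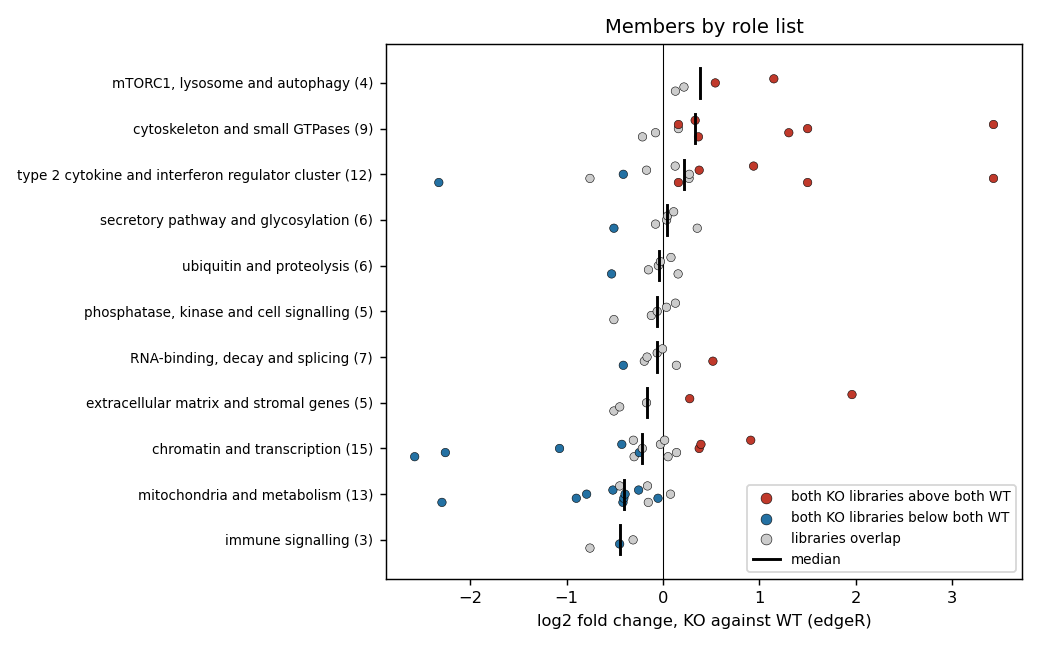
Points give the edgeR log2 fold change (KO against WT) of members on each role list, with the number of members in brackets, the median as a bar, and colours for both KO libraries above (red) or below (blue) both WT libraries or overlapping them (grey). The mitochondria and metabolism list has 9 of 13 genes below and none above, and the cytoskeleton list has 6 of 9 above and none below. Gm12220 is on no list.

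The cytoskeleton and small GTPase list had the opposite arrangement. Of its 9 members, 6 had both KO libraries above both WT libraries and 0 had both below, with a median log2 fold change of 0.33, beside 20% above over all genes tested, and 3 (Pdlim4, Kif3a and N4bp3) were over 2-fold apart. Mprip, a myosin phosphatase-interacting protein gene, was at 31.6 and 34.0 CPM in WT and at 39.7 and 42.9 CPM in KO. Arf1, a GTPase of Golgi traffic, was at 536 and 556 CPM in WT and at 483 and 551 CPM in KO and overlapped. Cdc42se2, a Cdc42 effector gene, had a log2 fold change of 0.16. None of the 9 passed the adjusted threshold of the quasi-likelihood test. The summed stromal markers, described with Adamts2, were also higher in both KO libraries, at 574 and 549 CPM against 143 and 207 CPM in WT.

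N4bp3, on this list, and D930048N14Rik stand head to head with 0.111 kb between them. N4bp3, named for binding the ubiquitin ligase NEDD4, had counts of 30 and 43 in WT against 101 and 115 in KO. D930048N14Rik had counts of 22 and 16 in WT against 83 and 48 in KO. Both were higher in each KO library, by 2.47-fold and 2.91-fold, with adjusted p values of 0.431 and 0.536 in edgeR's quasi-likelihood test. Hnrnpab, which lies before them with 2 members between, encodes an RNA-binding protein and was at 326 and 460 CPM in WT and at 324 and 459 CPM in KO. Phykpl, which overlaps Hnrnpab by 4390 bases on the other strand, cannot be told apart from it in the shared bases if strand was not used.

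At the far edge, zinc finger genes were at low counts, and 3 of the 4 were lower in KO. Zfp354a had counts of 23 and 28 in WT against 3 and 7 in KO, a count ratio of 6.08 with a 95% counting interval of 3.05 to 13.4. Zfp354b had counts of 13 and 12 in WT against 3 and 3 in KO, a ratio of 4.97 (1.99 to 14.8). Both passed the count minimum through WT alone, the intervals cover counting error only, and the quasi-likelihood adjusted p (edgeR) was 0.313 for Zfp354a and 0.408 for Zfp354b. Zfp2 had counts of 46 and 25 in WT against 18 and 22 in KO, and their paralogue Zfp354c ran the other way, with 17 and 13 in WT and 41 and 26 in KO. These genes encode KRAB-type and related DNA-binding proteins, and similar sequences may share reads. The list of chromatin and transcription genes had 15 members, 3 with KO above and 5 below, beside 20% and 16.9% of all genes tested, and a median log2 fold change of -0.21. On it, the histone gene Hist3h2a was at 53.5 and 24.0 CPM in WT and at 38.4 and 24.2 CPM in KO, and Cops3, a subunit of the COP9 signalosome, was at -0.03 on the log2 scale.

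Adamts2, the procollagen N-proteinase gene and the member farthest from G3bp1 on that side, had counts of 10 and 5 in WT against 41 and 29 in KO, 3.90-fold apart with a quasi-likelihood adjusted p (edgeR) of 0.463. Markers of stromal cells differed between the same libraries. Their summed level was 143 and 207 CPM in WT and 574 and 549 CPM in KO, 9 of the 10 markers had KO above WT without overlap, and none was at 0. In a bulk sample more cells of a type and more RNA per cell cannot be told apart. The part of stromal cells, or of the other cell types below, in the values of Adamts2, Pdlim4 or other members was not tested. This holds also for the genes on the cytoskeleton and the mitochondrial lists. Of the 5 members on the extracellular matrix list, 2 (Adamts2 and Mfap3, the latter at 0.28 on the log2 scale) had KO above WT without overlap, beside 20% of all genes tested, and 0 had KO below, beside 16.9%. P4ha2, a collagen prolyl hydroxylase, Gpx3, the secreted glutathione peroxidase, and Wnt9a, a Wnt ligand, overlapped, at -0.17, -0.45 and -0.51. Neutrophil markers summed to 22.1 and 21.2 CPM in WT and to 7.73 and 11.3 CPM in KO, with 3 of 6 below. Of these, Ngp had counts of 1 and 1 in WT and 0 in KO. B cell markers summed to 21.5 and 22.5 against 11.6 and 10.9 CPM, with 5 of 5 below. Pax5 was among them at counts of 6 and 6 against 5 and 6. Over all genes tested 16.9% were below. Mast cell and basophil markers summed to 34.2 and 36.8 against 18.7 and 22.5 CPM, with 3 of 6 below and Mcpt8 at 0. Gata2 ran the other way, at counts of 2 and 4 in WT against 8 and 9 in KO. Erythroid markers summed to 9.43 and 7.03 against 1.66 and 2.29 CPM. Dendritic cell markers summed to between 4.29 and 7.78 CPM and T and NK cell markers to at most 0.863 CPM.

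After G3bp1 the 43 genes were even between the genotypes. With KO above WT there were 8 genes and with KO below also 8, together 37.2%, beside 36.9% of all genes tested. Among the genes named by rule on that side, Flcn had the largest difference without overlap, at 55.5 and 48.0 CPM in WT and at 79.8 and 71.0 CPM in KO, 1.46-fold with a quasi-likelihood adjusted p (edgeR) of 0.795. Its partner gene Fnip1, which lies before G3bp1, was at 125 and 125 CPM in WT and at 169 and 122 CPM in KO, so its libraries overlapped. With Slc36a1 and Cdkl3 these made a list of 4 genes of nutrient sensing and the lysosome, 2 with KO above WT and 0 below, beside 20% and 16.9% of all genes tested. Rnf187 and Drg2 had log2 fold changes of -0.05 and 0.04.

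The remaining lists had few members apart, and their counts are set beside the 36.9% of all genes tested whose libraries did not overlap. Among the ubiquitin genes, Ube2b, an E2 enzyme of histone ubiquitination, was at 198 and 131 CPM in WT and at 118 and 109 CPM in KO without overlap, and Skp1a, a subunit of SCF ligases, was at 0.08 on the log2 scale. Of the 6 members on that list, 1 did not overlap. Of the 6 members of the secretory list, 1 did not overlap, namely Sar1b, the COPII GTPase, at 145 and 108 CPM in WT and 75.6 and 102 CPM in KO. The RNA-binding list had 7 members and 2 that did not overlap, and its Nhp2 and Clk4 were at -0.17 and -0.06 on the log2 scale. Of the 5 members of the phosphatase and kinase list, 0 were without overlap, and Ppp2ca, a catalytic subunit of phosphatase 2A, was at -0.12. The 20 members on no list had 6 with KO above and 4 below.

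Of the 92 members, 19 differed between the library numbers in 1 direction by more, in both genotypes, than they did between genotypes at either number, and the 4 largest passed 2-fold. The share of all genes tested under this rule was not counted, so the 19 cannot be read as a trait of the interval. Irf1, an interferon-induced transcription factor gene, was at 23.4 and 223 CPM in WT1 and WT2 and at 20.2 and 126 CPM in KO1 and KO2. Tnip1, whose product restrains NF-kB signalling, was at 55.1 and 236 CPM in WT and at 50.8 and 184 CPM in KO. Rapgef6, a guanine nucleotide exchange factor gene, ran the other way, at 59.6 and 20.6 CPM in WT and at 52.3 and 16.9 CPM in KO. With Gm12216 (6 and 34 counts in WT, 6 and 19 in KO) these were the 4 members (4.35%) over 2-fold apart between numbers in the same direction in both genotypes, beside 6.78% of all genes tested. Larp1, a regulator of translation, was at 40.6 and 117 CPM in WT and at 60.4 and 113 CPM in KO. Their genotype groups overlapped. For Irf1 the 95% interval of the log2 fold change ran from -3.87 to 2.35 in the fit with genotype only. A difference between genotypes of several fold in either direction was therefore not detectable in that fit. The log2 ratios of Irf1, KO to WT, between libraries of the same number were -0.21 and -0.83. What the numbers 1 and 2 stand for is not given in the labels. On the immune signalling list of 3 genes, Irf1 and Tnip1 overlapped between genotypes and Anxa6, an annexin gene, was at 166 and 167 CPM in WT and at 126 and 117 CPM in KO.

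**Figure D5:**
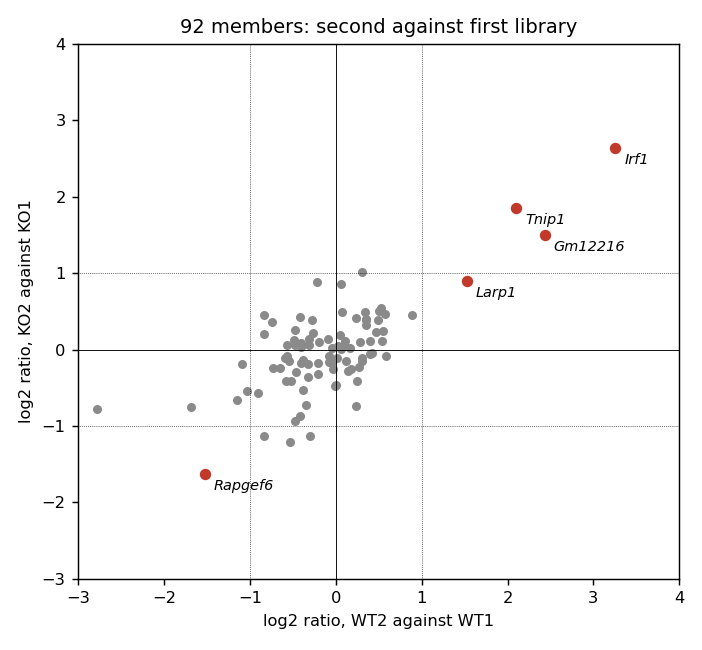
Each point is 1 of the 92 genes, with the log2 ratio of WT2 to WT1 on the horizontal axis and of KO2 to KO1 on the vertical axis, and dotted lines at 2-fold. Irf1 (3.26 and 2.64), Tnip1 (2.10 and 1.86), Gm12216 and Larp1 lie to the upper right and Rapgef6 (-1.53 and -1.63) to the lower left. For these labelled genes the 2 genotypes differed between numbers in the same direction, whereas some others, such as Hint1 (-0.83 and 0.45), did not.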

How the data were processed

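Total RNA of macrophages was sequenced in 4 libraries, 2 labelled WT and 2 labelled KO. Per the study's methods, the authors filtered reads with Seqtk, aligned them with HISAT2 2.0.4 and counted with StringTie 1.3.3b. They deposited whole-number counts per gene, not normalised, and FPKM values computed by the authors beside them. The processing notes name mm39, but all 92 members have the same start and end in GENCODE M21 of GRCm38, the build used for every position. Whether strand was used is not given in the sources used here.

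The main test used edgeR 4.0.16 in R 4.3.3. Genes passing filterByExpr (minimum count 10, minimum total 15; 12418 genes, all 92 members among them) were scaled by TMM (factors 0.942 to 1.12) and tested two-sided by glmQLFTest after glmQLFit, genotype being the only term with Benjamini-Hochberg adjustment over all of them. A call needed adjusted p under 0.05 together with more than 2-fold (log2 of 1). CPM use TMM-scaled totals. Ratios between libraries of the same number had 0.5 counts added. The fit was tested on simulated data. No library was a copy of another: chi-square over degrees of freedom was 23.1 to 126 between pairs. Intervals and floors of 3 counts cover counting error only, since reads carried no molecular identifiers.

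DESeq2 1.42.0, limma 3.58.1 on log2(FPKM + 1) or log2(FPKM + 0.1), edgeR's exact test, other filters and scalings, a replicate block, windows of 1 and 2.5 Mb and leaving out each library were alternatives. The members, role lists and marker lists were chosen with earlier results of these data known. Genes were named by rule: the 4 nearest on each side, up to 5 higher and 5 lower in KO by unadjusted p without overlap and with the same sign between libraries of each number, the 5 most abundant by FPKM, and up to 3 per role list by CPM, which gave 43. Others with values, such as Kif3a, Zfp2, Rapgef6, Gm12216, Rad50, Slc22a5, Slc22a21, Zfp354c, Phykpl, Mprip, Mrpl22 and Mrpl55, were chosen after their values were seen, as was the count of genes over 2-fold apart without overlap. Promoters came from RefSeq, taking for each gene the start nearest to the deposited one.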

Additional observations from a re-analysis of the deposited data

How the results depend on the processing

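The count of members called was 0 in the main test, with other size factors, with other low-count filters, with the gene length correction, with no minimum fold change, with limma on log2(FPKM + 1), and with any 1 library left out. It was 6 with edgeR's exact test, 4 with the DESeq2 Wald test, 1 with limma on log2(FPKM + 0.1), 12 of 92 with a replicate block (664 of all genes called) and 8 with the replicate block and gene length correction (390 of all). The block set Adamts2, Zfp354a, Zfp354b, N4bp3, D930048N14Rik, Kif3a, Gm12220, Slc22a4, Pdlim4, Lyrm7, Slc36a1 and Slc36a2 past the threshold, and all of these lie before G3bp1. Libraries with the same number deviated together (correlation 0.727 over all genes), but the labels do not say what a number marks and there are only 2 pairs, so the pairing was not used for the main result.

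The median log2 fold change of the members, -0.04, was -0.12 with the gene length correction, with and without the block, and -0.45 and -0.17 in windows of 1 and 2.5 Mb. Members without overlap numbered 7 of 11 (63.6%) and 19 of 31 (61.3%) in those windows, beside 47.8% of all members and 36.9% of all genes, and those over 2-fold apart 3 (27.3%) and 7 (22.6%), beside 14.1% and 6.76%. The smaller window includes Slc36a2, and the larger one Slc36a2 and Gm12220, which passed the count minimum through 1 genotype only. With a library left out, 13 to 19 members were over 2-fold apart, 10 to 13 of the original 13 among them. With at least 10 counts required in a library of each genotype, an alternative chosen after the data were seen, 9 of 88 were over 2-fold apart (10.2%, beside 4.78% of all genes under the same requirement).

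Of the 43 named members, 18 changed sign in at least 1 fit. With the gene length correction, without and with the block, Sept8 went to -0.080 and -0.077, Galnt10 to -0.094 and -0.086 and Rnf187 to 0.086 and 0.082, and Larp1 to -0.044 without the block. With DESeq2 size factors Galnt10 and Drg2 were at -0.00098 and -0.0013, and with the Wald test at -0.00099 and -0.0013. The cause was not tested. With 1 library left out, where the lone library of a genotype is taken to vary like the other pair, 17 named members changed sign in at least 1 fit. Their log2 fold changes ran from -0.14 to 0.0098 for Clk4, from -0.29 to 0.23 for Hnrnpab, from -0.66 to 0.20 for Nhp2, from -0.34 to 0.068 for Ppp2ca, from -0.14 to 0.31 for Skp1a, from -2.62 to 1.61 for Irf1, from -0.47 to 0.085 for P4ha2, from -0.034 to 0.43 for Fnip1, from -0.020 to 0.32 for Cdc42se2, from -1.53 to 1.06 for Tnip1, from -0.16 to 0.23 for Galnt10, from -0.43 to 1.06 for Larp1, from -0.23 to 0.12 for Rnf187, from -0.81 to 0.38 for Hist3h2a, from -0.18 to 0.017 for Arf1, from -0.11 to 0.045 for Cops3 and from -0.18 to 0.22 for Drg2. The 13 genes over 2-fold apart had the same sign in each of these fits and in the other alternatives. They were picked for libraries without overlap, so their sign could hardly change, and this is no further support for them.

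The biological coefficient of variation was 0.343 without the block and 0.169 with it, and for genes with counts of 3 or fewer in a library, such as Zfp354b and Slc36a2, the counting error was large as well.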
